A study of Mus musculus with 4 samples.

Results

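The proneural basic helix-loop-helix (bHLH) genes Neurog1, Neurog2, Neurog3, Neurod1, Neurod4 and Atoh1, the related genes Olig2 and Olig3, and the bHLH repressor gene Hes5 were followed in P19 cells. They were found by their gene symbols in the platform's probe annotation, and all 9 had at least 1 probe set that named no other gene. These were 9 of the 22180 genes with a value, and 8 of them were among the 18310 genes whose log2 signal reached 6 on at least 1 of the 4 arrays. At 4 days in retinoic acid 0 of these 8 genes were 2-fold apart from undifferentiated cells in either line, where 5.20% of all genes were in wild type and 4.71% in the Ctcfl line. Of the 8, Neurod1, Olig2 and Olig3 lay on every array below a guide to background taken from olfactory receptor genes. In a test of retinoic acid averaged over the lines 0 of the 8 passed, against 6.65% of all genes. Neurog3 came closest, with signals 1.54-fold and 1.52-fold lower in the 2 lines.

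P19 is a mouse embryonal carcinoma line that takes on neural or other fates in retinoic acid, depending on how it is grown. Affymetrix gene arrays measured expression in wild-type P19 and in 1 clone that carried the stably integrated vectors pBI-EGFP-FLAG-mCtcfl and pTA-N, called the Ctcfl line here. In this Tet-Off system doxycycline keeps the Ctcfl transgene off, and the Ctcfl line had been without it for 2 days. Each line was measured after ethanol vehicle and after 4 days in 10 µM retinoic acid, with 1 array per condition. The undifferentiated state is the vehicle culture. For wild-type cells the sample characteristics give 2 µg/ml doxycycline, whereas the growth description gives ordinary medium. A difference between the lines is therefore of the vectors, the clone and possibly doxycycline together, and the labels do not say whether the retinoic acid cultures were aggregated.

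Proneural factors bind DNA as pairs with E proteins at E-box sequences and drive neural progenitors out of the cell cycle and towards neurons. They switch on the Notch ligand gene Dll1, and Notch signalling in the neighbouring cell, through the DNA-binding protein Rbpj, switches on Hes genes, whose products repress the proneural genes. Id proteins bind E proteins without binding DNA and so hold proneural factors inactive. Olig2 marks progenitors of motor neurons and oligodendrocytes, Olig3 marks dorsal progenitors, Atoh1 serves cerebellar granule cells and inner ear hair cells, and Neurog3 is best known in the endocrine pancreas.

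The promoters of Neurog3, Neurod1 and Hes5, whose signals had the widest ranges over the 4 arrays among the 8 genes, are shown as the 250 bases before the first RefSeq start site listed (GRCm38.p6). The Neurog3 sequence is chr10:62132840-62133089 on the plus strand, that of Neurod1 is chr2:79456637-79456886 on the minus strand and that of Hes5 is chr4:154960673-154960922 on the plus strand. The Hes5 window lies inside the span that RefSeq gives for the gene, which begins further upstream than the start site used for the window. Capitals mark matches to the E-box CANNTG and to the Rbpj motif GTGGGAA, searched on both strands, and these matches do not overlap here.
Neurog3: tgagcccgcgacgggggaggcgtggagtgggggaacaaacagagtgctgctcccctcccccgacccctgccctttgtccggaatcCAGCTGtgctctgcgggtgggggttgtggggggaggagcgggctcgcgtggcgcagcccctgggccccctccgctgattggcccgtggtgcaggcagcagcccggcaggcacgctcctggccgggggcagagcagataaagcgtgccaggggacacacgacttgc
Neurod1: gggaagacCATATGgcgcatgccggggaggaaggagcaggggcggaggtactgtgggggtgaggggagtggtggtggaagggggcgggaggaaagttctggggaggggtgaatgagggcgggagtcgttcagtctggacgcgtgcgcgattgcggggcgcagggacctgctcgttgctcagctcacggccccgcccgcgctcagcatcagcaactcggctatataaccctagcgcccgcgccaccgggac
Hes5: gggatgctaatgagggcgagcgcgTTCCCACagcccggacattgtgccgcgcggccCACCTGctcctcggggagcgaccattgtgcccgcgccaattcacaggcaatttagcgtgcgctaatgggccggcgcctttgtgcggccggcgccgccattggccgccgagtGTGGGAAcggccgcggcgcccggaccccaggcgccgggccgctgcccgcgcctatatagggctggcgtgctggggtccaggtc

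The Rbpj motif was found in the Hes5 promoter alone among the 9 genes, with 2 matches that start 226 and 83 bases before the start site, and 5.42% of all 32851 promoters of that length hold it. An E-box was present in 4 of the 9 promoters, those of Neurog3, Neurod1, Olig3 and Hes5, and in 66.2% of all promoters. The retinoic acid receptor half-site AGGTCA was present in 1 of the 9, that of Neurog1, at 111 bases before the start site, and in 14% of all promoters. The Hes motif CACNAG was present in 1 of the 9, that of Neurod4, and in 36.7% of all promoters. A match is a description of letters in this window only.

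The arrays were alike in scale, with medians over all probe sets between log2 6.95 and 6.96. Ctcfl itself had signals of log2 7.86 and 7.13 in undifferentiated and retinoic acid wild-type cells, and of 10.41 and 9.56 in the Ctcfl line. As a guide to background, 95% of 1105 olfactory receptor genes lay below log2 6.95, 6.89, 6.91 and 6.82 in undifferentiated wild-type cells, wild-type cells in retinoic acid, undifferentiated cells of the Ctcfl line and the Ctcfl line in retinoic acid. Array values below are given in this order. With single arrays there is no replicate error, and the number of arrays limits the precision. A technical spread came from 874 genes with several probe sets: within such a gene, the differences that its probe sets gave had an SD of log2 0.303 for retinoic acid in wild-type cells, 0.331 for retinoic acid in the Ctcfl line, 0.262 and 0.226 for the line difference in undifferentiated and retinoic acid cells, and 0.321 for the difference between the responses.

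Signals of 3 of the 9 genes, Neurog1, Neurog2 and Hes5, were above the olfactory receptor limit on all 4 arrays. Neurog3 and Atoh1 were above it on 3 arrays, and Neurod1, Neurod4, Olig2 and Olig3 on 0. Probe sets differ in background and response, so the signals of the 9 genes are not set against each other. For the same reason the olfactory receptor limit is only a rough guide for any single gene. In bulk RNA, fewer cells with a transcript and less transcript per cell cannot be told apart.

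The neurogenins specify neuronal progenitors, Neurog1 and Neurog2 in the nervous system. Neurog1 (chr13:56250478-56252180) had signals of log2 7.41, 7.42, 7.11 and 7.38. Its lowest value was in undifferentiated cells of the Ctcfl line, and the other 3 lay close together. Neurog2 (chr3:127632733-127635636) had 7.90, 8.09, 8.08 and 8.10, the narrowest range of the 9 genes at log2 0.20. Neurog3 (chr10:62133090-62134763) had 7.48, 6.86, 7.56 and 6.95. Both undifferentiated arrays were above both retinoic acid arrays for Neurog3, and in wild-type cells in retinoic acid its signal was just below the olfactory receptor limit.

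The NeuroD genes act later, in differentiating neurons and endocrine cells. Neurod1 (chr2:79452637-79456636) had log2 6.23, 6.36, 6.15 and 5.67, lowest in the Ctcfl line in retinoic acid. Neurod4 (chr10:130268152-130280254) had 5.99, 5.30, 5.82 and 5.56 and did not reach the limit of 6 on any array, so it was not among the genes compared. The signals of both genes lie below the olfactory receptor limit on every array. Folds of Neurod1 that rest on its value of 5.67 are not exact.

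Atoh1 (chr6:64729125-64731245) had signals of log2 7.29, 6.88, 6.97 and 6.89, highest in undifferentiated wild-type cells. Olig2 (chr16:91225550-91228677) had 6.44, 6.38, 6.55 and 5.98, and its lowest value was again in the Ctcfl line in retinoic acid. Olig3 (chr10:19356539-19358604) had 6.31, 6.64, 6.23 and 6.22, highest in wild-type cells in retinoic acid. Hes5 (chr4:154960626-154962372), the Notch target, had 7.31, 7.92, 7.56 and 7.48. Its highest value was in wild-type cells in retinoic acid, and the 2 undifferentiated values lay on both sides of that of the Ctcfl line in retinoic acid.

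**Figure D1:**
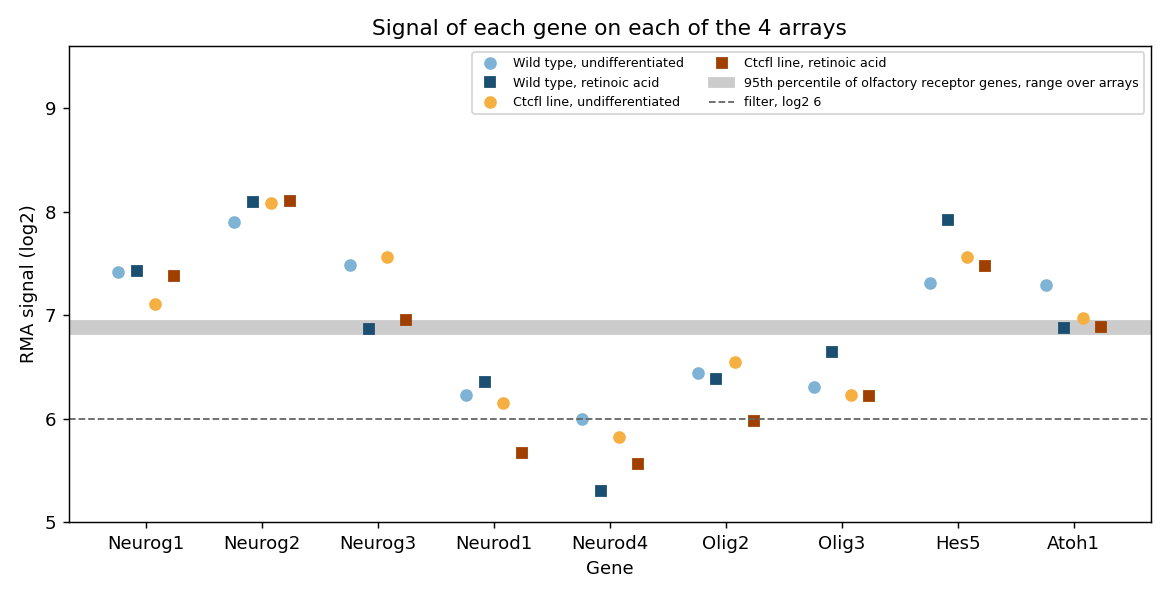
RMA signal (log2) of the 9 genes on each of the 4 arrays, 1 point per array, with the dashed line at the limit of log2 6 and the grey band at the 95th percentile of olfactory receptor genes (6.82 to 6.95 over the arrays). Neurod1, Neurod4, Olig2 and Olig3 lie below the band on all 4 arrays, and for Neurog3 both retinoic acid points lie below both undifferentiated points.

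The first comparison asks what retinoic acid did to these genes in each line. In wild-type cells the signal of Hes5 was log2 0.61 higher (1.53-fold), that of Olig3 0.34 higher, that of Neurog3 was at -0.62 (1.54-fold lower) and that of Atoh1 at -0.41. These 4 of 8 genes differed by more than 1 technical SD, as did 37.0% of all genes compared. Of the 8 genes, 0 were 2-fold apart, against 5.20% of all genes. The other four differed by log2 0.20 for Neurog2, 0.13 for Neurod1, -0.06 for Olig2 and 0.01 for Neurog1. The median of the 8 was log2 0.07, beside -0.04 over all genes compared.

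In the Ctcfl line the difference with retinoic acid was log2 -0.60 for Neurog3 (1.52-fold lower), -0.57 for Olig2 and -0.48 for Neurod1. These 3 of 8 genes were past 1 technical SD, as were 37.5% of all genes, and 0 of the 8 were 2-fold apart, against 4.71%. For Olig2 and Neurod1 the retinoic acid signals, 5.98 and 5.67, were below log2 6. Their undifferentiated signals, 6.55 and 6.15, were above it. Neurog1 was at 0.26, Neurog2 at 0.02, Olig3 at -0.01, Hes5 at -0.08 and Atoh1 at -0.09. The median of the 8 was log2 -0.09, beside -0.05 over all genes. Neurog3 was past 1 technical SD in the same direction in both lines, 1 of the 8 genes, as were 18.3% of all genes; its difference was larger in size than that of 87.0% of all genes in wild type and of 86.0% in the Ctcfl line.

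**Figure D2:**
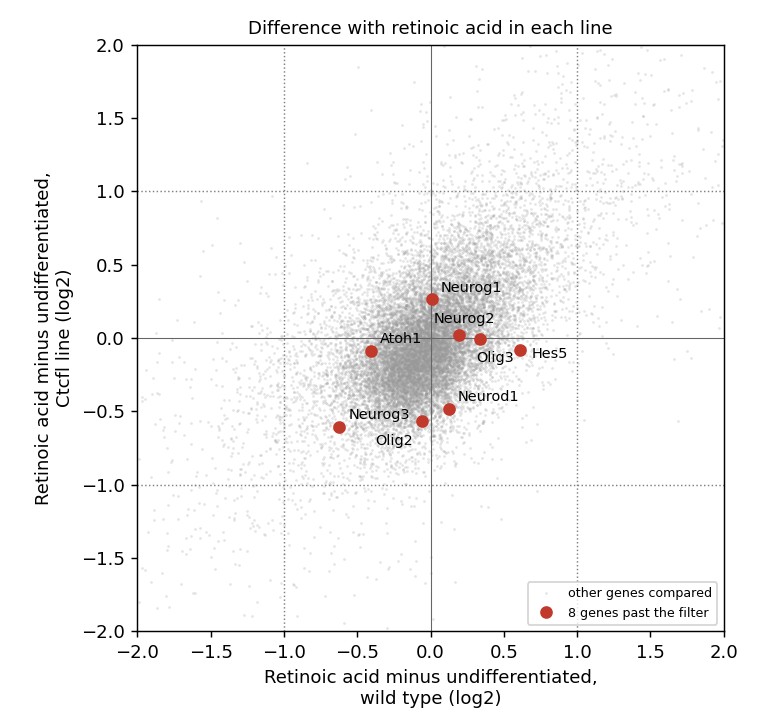
Log2 difference of retinoic acid minus undifferentiated cells in wild type (x axis) and in the Ctcfl line (y axis), with 8 genes in red, the other genes compared in grey and dotted lines at 2-fold; genes more than log2 2 apart on either axis are not drawn. All 8 lie inside the dotted lines; Neurog3, at -0.62 and -0.60, lies close to the diagonal, and Hes5 is at 0.61 and -0.08.

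The limma test of retinoic acid was averaged over the lines. A gene's own part of its error was the gap between its 2 responses, with 1 residual degree of freedom. More weight lay with a variance prior drawn from all genes, with 5.49 degrees of freedom. The test gave 0 of 8 genes that rose and 0 that fell at an adjusted p of 0.05. Over all genes compared, 4.21% rose and 2.44% fell. At an unadjusted p of 0.05 1 of the 8 passed, Neurog3, as did 23.5% of all genes. Neurog3 had an effect of log2 -0.61 ± 0.15 (SE) with an adjusted p of 0.0624 in limma, and was lower in 2 of 2 lines. Its responses in the lines differed by only log2 0.02, so this SE reflects mostly the prior. With quantile normalization of the arrays, or with a variance prior that follows mean expression, the adjusted p of Neurog3 was 0.0441 and 0.0443 in limma, and over all alternatives it lay between 0.0441 and 0.0763. The adjusted p in limma was 0.337 for Olig2, at an effect of log2 -0.31 ± 0.18, and 0.396 for Atoh1, at -0.25 ± 0.16. Hes5 had an effect of log2 0.26 ± 0.20 (SE, adjusted p = 0.464 in limma). The other four, Neurog1, Neurog2, Neurod1 and Olig3, had effects between log2 -0.18 and 0.17 with adjusted p between 0.571 and 0.709. When genes of low signal were kept, Neurod4 had an effect of log2 -0.47 ± 0.17 (SE, adjusted p = 0.187 in limma), from differences of -0.69 in wild type and -0.26 in the Ctcfl line.

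The second comparison asks how the Ctcfl line differed from wild type in each state. In undifferentiated cells Atoh1 was at log2 -0.31 and Neurog1 at -0.30 in the Ctcfl line relative to wild type. These 2 of 8 genes were past 1 technical SD, as were 35.8% of all genes, and 0 of the 8 were 2-fold apart, against 1.82%. Hes5 was 0.25 higher by its first probe set and Neurog2 0.19 higher, and Olig2, Neurog3, Neurod1 and Olig3 lay between -0.08 and 0.11. The median of the 8 was log2 -0.0033, beside -0.02 over all genes.

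In retinoic acid Neurod1 was 1.61-fold lower in the Ctcfl line (log2 -0.69), Hes5 1.36-fold lower (-0.45), Olig3 1.34-fold lower (-0.43) and Olig2 1.32-fold lower (-0.40). These 4 of 8 genes were past 1 technical SD, as were 36.9% of all genes, and 0 of 8 were 2-fold apart, against 1.23%. Of the 4, Neurod1, Olig2 and Olig3 had signals below the olfactory receptor limit on every array, and those of Neurod1 and Olig2 in the Ctcfl line were below log2 6. The other four, Neurog1, Neurog2, Neurog3 and Atoh1, lay between -0.05 and 0.09. The median of the 8 was log2 -0.23, beside -0.02 over all genes.

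In the limma test of the line averaged over the states, 0 of the 8 genes passed at an adjusted p of 0.05, against 0.0437% of all genes, and 0 of 8 passed at an unadjusted p of 0.05, against 9.81%. Neurod1 had the smallest adjusted p, 0.574 in limma, at an effect of log2 -0.38 ± 0.19 (SE). Its line difference was -0.08 in undifferentiated cells, within 1 technical SD. In retinoic acid it was -0.69, from a signal below log2 6 in the Ctcfl line. The effects of the other seven lay between log2 -0.25 for Olig3 and 0.10 for Neurog2, with adjusted p between 0.646 and 0.911. A miss of the threshold does not show that the lines were alike.

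**Figure D3:**
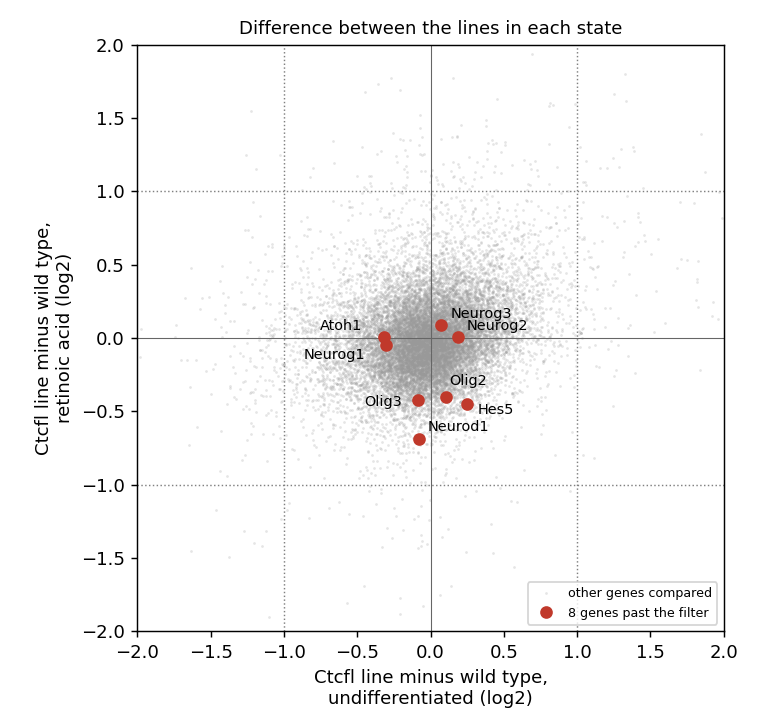
Log2 difference of the Ctcfl line minus wild type in undifferentiated cells (x axis) and in retinoic acid (y axis), with 8 genes in red, the other genes compared in grey and dotted lines at 2-fold; genes more than log2 2 apart on either axis are not drawn. Neurod1, Hes5, Olig3 and Olig2 lie between -0.69 and -0.40 on the y axis, and the other four lie between -0.05 and 0.09.

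The difference between the responses, the retinoic acid difference of the Ctcfl line minus that of wild type, was log2 -0.70 for Hes5, -0.61 for Neurod1, -0.51 for Olig2 and -0.34 for Olig3. These 4 of 8 genes were past 1 technical SD, as were 35.5% of all genes, and 0 of 8 were 2-fold apart, against 2.65%. Of the 4, Neurod1, Olig2 and Olig3 had signals below the olfactory receptor limit on every array. The second probe set of Hes5 gave -0.13, within 1 technical SD. Atoh1 was at 0.32, Neurog1 at 0.26, Neurog2 at -0.18 and Neurog3 at 0.02. This difference cannot be tested with 1 array per condition. The retinoic acid difference had opposite signs in the lines in 3 of the 8 genes, as in 30.9% of all genes, and the line difference had opposite signs in the states in 3 of the 8, as in 42.7%. Either was the case in 5 of the 8 and in 54.9% of all genes.

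Hes5 and Neurod1 had 2 probe sets each. The second probe set of Hes5 had signals of log2 7.18, 6.96, 7.0 and 6.65, so that its difference with retinoic acid was -0.23 in wild-type cells, where the first gave 0.61. In the Ctcfl line both were negative, at -0.35 and -0.08. Between the lines the second probe set gave -0.18 in undifferentiated cells, where the first gave 0.25, and in retinoic acid both were negative, at -0.31 and -0.45. With the mean of both, Hes5 differed by log2 0.19 with retinoic acid in wild type, and its effect averaged over the lines was -0.01 (adjusted p = 0.974 in limma). The direction of Hes5 thus depended on the probe set for retinoic acid in wild type and for the line in undifferentiated cells.

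The second probe set of Neurod1 is annotated to the neighbouring gene Cerkl as well and had signals of log2 6.63, 6.44, 6.60 and 6.08. It was lowest in the Ctcfl line in retinoic acid, as was the first. The difference with retinoic acid in the Ctcfl line was -0.52 with this probe set and -0.48 with the first, and the line difference in retinoic acid was -0.35 and -0.69. In wild-type cells the 2 differed in sign, at -0.19 and 0.13 with retinoic acid. Which of the 2 genes the shared probe set reads was not tested.

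**Figure D4:**
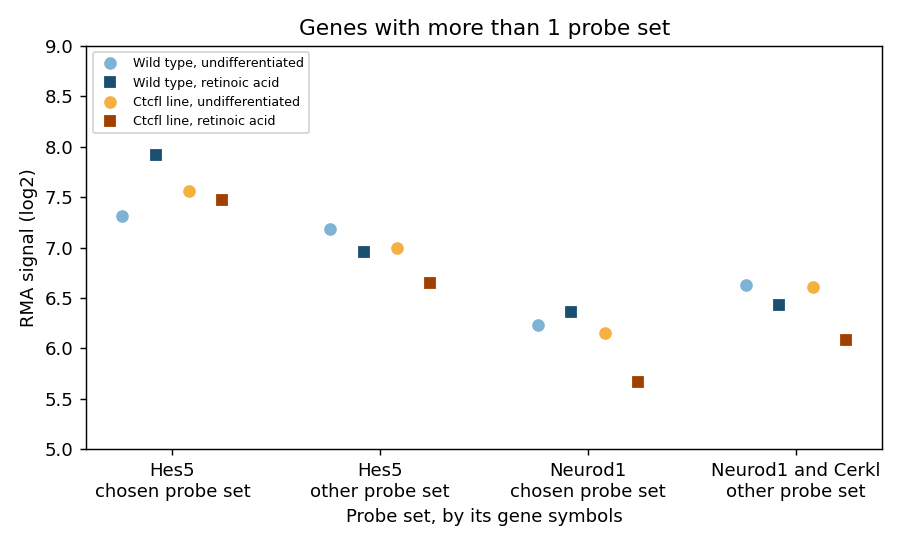
RMA signal (log2) on each of the 4 arrays for the 2 probe sets annotated to Hes5 and the 2 annotated to Neurod1, of which 1 also names Cerkl. In wild-type cells retinoic acid was above the undifferentiated state in the first Hes5 probe set (7.92 and 7.31) and below it in the second (6.96 and 7.18).

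The other genes of the proneural pathway were read from 6 lists, against a background of 4.21% of all genes that rose and 2.44% that fell with retinoic acid. Of 12 other neural bHLH activator genes measured, 0 rose and 0 fell with retinoic acid in limma. Atoh8, a relative of Atoh1, was the 1 gene of these 2-fold apart, with signals of log2 7.57, 8.77, 7.92 and 8.26. It was 1.19 higher with retinoic acid in wild type and 0.35 higher in the Ctcfl line (adjusted p = 0.1 in limma). Olig1, the neighbour of Olig2, had 7.22, 7.32, 7.32 and 7.27, and Neurod2 had 7.31, 7.31, 7.37 and 7.01; both were chosen after their values were seen.

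Among 7 genes for E proteins and Id inhibitors 1 rose and 0 fell. Id2, an inhibitor of E proteins, had signals of log2 11.62, 12.47, 11.55 and 12.29 and was 1.73-fold higher by the fit, a rise of log2 0.79 ± 0.15 (SE) with an adjusted p of 0.0303 in limma. Both retinoic acid arrays were above both undifferentiated ones. The other Id genes, added after their values were seen, did not pass and did not move one way. Id4 differed with retinoic acid by log2 -1.15 in wild type and -0.09 in the Ctcfl line. Id3 was at 1.20 and 0.11, and Id1 at 0.51 and -0.45. Between the lines Id4 differed by -1.15 in undifferentiated cells. The list's median difference was log2 0.51 in wild type and 0.21 in the Ctcfl line.

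Of 10 other Hes and Hey genes and their relatives past the limit, 2 rose and 0 fell. Hey1, a Notch target and relative of the Hes genes, rose 1.85-fold (adjusted p = 0.0214 in limma), from log2 9.67 to 10.49 in wild type and from 9.31 to 10.26 in the Ctcfl line. Bhlhe40, a bHLH repressor of the circadian and hypoxia responses, rose 2.94-fold (adjusted p = 0.0116), with differences of 1.15 and 1.96. Hes1, the other main Notch target of the family, chosen after its values were seen, had 8.64, 9.42, 8.93 and 9.43, an effect of log2 0.64 that did not pass (adjusted p = 0.0656).

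The Notch ligands did not move one way. Of 20 genes of Notch signalling, 1 rose and 2 fell with retinoic acid in limma. Dll1, the ligand that proneural factors switch on, had signals of log2 8.49, 9.35, 7.38 and 9.34 and rose by log2 1.41 ± 0.26 (SE), or 2.65-fold, with an adjusted p of 0.0298 in limma. Its lowest value was in undifferentiated cells of the Ctcfl line, -1.11 from wild type, and in retinoic acid the lines differed by -0.01. Dll3, a divergent ligand that acts inside the cell, fell 1.97-fold (adjusted p = 0.0147 in limma), with differences of -0.99 and -0.97. Jag1, a ligand of the other class, fell 2.39-fold (adjusted p = 0.00996), with differences of -1.46 and -1.06.

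Of 24 genes that proneural factors are known to activate or that follow them in young neurons, 2 rose and 2 fell; Dll1 and Dll3 are among them. Dcx, a microtubule protein of migrating neurons, rose 2.67-fold (adjusted p = 0.00985 in limma), from log2 6.40 to 8.11 in wild type and from 6.98 to 8.10 in the Ctcfl line. Elavl3, a neuronal RNA-binding protein, fell 1.84-fold (adjusted p = 0.0282), with differences of -1.05 and -0.71. The list's median difference was log2 -0.09 in wild type and -0.14 in the Ctcfl line.

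Of 27 regulators of neural tube domains, 7 rose and 0 fell with retinoic acid in limma. The homeobox genes Irx3 and Msx2 rose 3.81-fold and 3.34-fold (adjusted p = 0.00722 and 0.00228), Sox1, a neural plate factor, rose 3.41-fold (adjusted p = 0.0111), and Pax6, a regulator of Neurog2 in the neural tube, rose 3.15-fold (adjusted p = 0.0188). Pax6 was 2.22 higher in wild type and 1.09 higher in the Ctcfl line, whereas Neurog2 differed by 0.20 and 0.02. In none of these 6 lists did a gene pass for the line effect in limma.

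**Figure D5:**
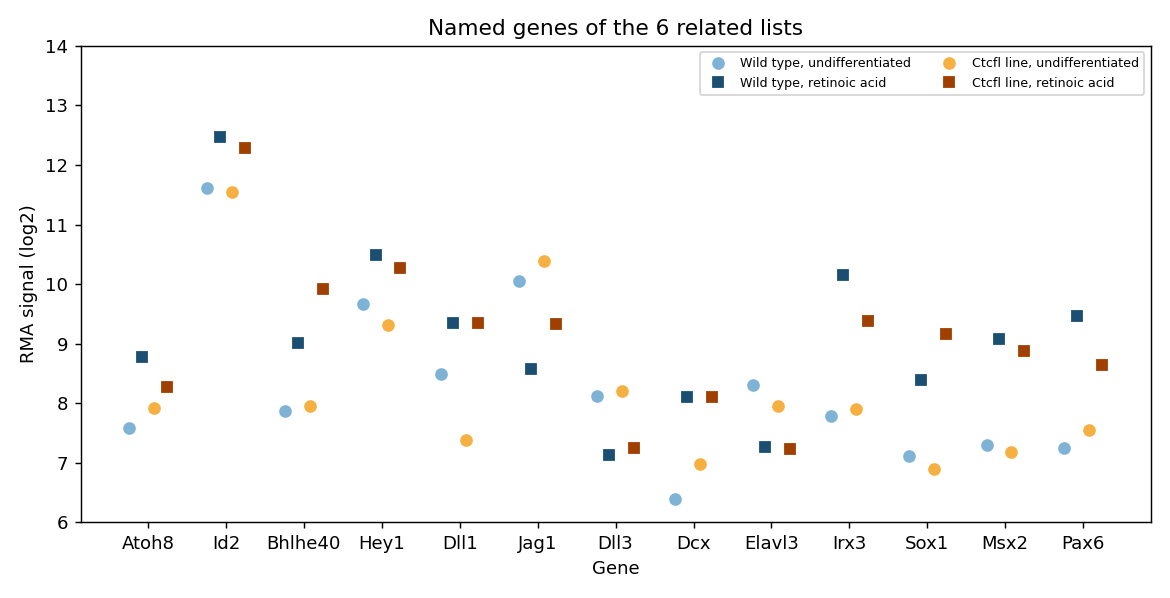
RMA signal (log2) on each of the 4 arrays for the 13 genes named from the 6 related lists. In Id2, Bhlhe40, Hey1, Dll1, Dcx, Irx3, Sox1, Msx2 and Pax6 both retinoic acid points lie above both undifferentiated points, and in Jag1, Dll3 and Elavl3 both lie below.

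Markers of the cell types in which these genes act were read beside them. Of 14 neuron markers 1 rose and 5 fell with retinoic acid in limma, and the log2 of their summed signals was 13.03, 12.18, 12.91 and 12.01. The neuronal tubulin gene Tubb3 had log2 9.16, 8.42, 8.39 and 8.22, and Rbfox3, a splicing factor of mature neurons, had 8.09, 7.77, 7.96 and 7.44. Neither passed in limma (adjusted p = 0.201 and 0.162). The 1 neuron marker that rose was Dcx, given above. Map2 had 8.08, 7.80, 7.66 and 7.88, lower with retinoic acid in wild type and higher in the Ctcfl line. Of 10 neural progenitor markers 5 rose and 1 fell, with summed signals of log2 13.09, 13.37, 13.21 and 13.48. A sum is carried by the genes of high signal. Sox2, which adds most to the progenitor sum, had 12.05, 11.58, 11.90 and 11.71, lower with retinoic acid in both lines. Its effect of log2 -0.32 did not pass in limma (adjusted p = 0.27). Sox1 and Pax6 of this list, given above, rose. Sox3 had 9.04, 8.69, 9.18 and 8.98 and did not pass (adjusted p = 0.311 in limma). Stmn2 and Ina, chosen after their values were seen, add most to the neuron sum in wild type and in the Ctcfl line, respectively. Of 10 pluripotency markers 0 rose and 6 fell; Pou5f1, which defines the undifferentiated line, had 9.37, 8.10, 10.03 and 8.14.

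Of 8 motor neuron markers 0 rose and 0 fell, with summed signals of log2 10.21, 10.03, 10.24 and 10.02. Mnx1, which defines these cells, had 6.26, 6.24, 6.35 and 6.27, below the olfactory receptor limit on every array. Of 9 markers of the oligodendrocyte lineage 1 rose, the growth factor receptor gene Pdgfra (log2 1.13 ± 0.20, SE, adjusted p = 0.0245 in limma), which mesenchyme and endoderm also express. Sox10, a factor of oligodendrocytes and neural crest, had 7.38, 7.42, 7.21 and 8.59, highest in the Ctcfl line in retinoic acid, and Nkx2-2 had 7.01, 6.90, 6.82 and 6.86. Of 8 astrocyte markers 0 rose and 1 fell.

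Of 8 markers of pancreatic endocrine cells 0 rose and 0 fell in limma, and Pdx1, the factor of the pancreas, had log2 6.84, 6.89, 7.03 and 6.64. Pdx1 was above the olfactory receptor limit only in undifferentiated cells of the Ctcfl line. Rfx6 of this list, chosen after its values were seen, had 6.27, 8.52, 6.19 and 6.24. It was 2.25 higher with retinoic acid in wild type and 0.05 higher in the Ctcfl line (adjusted p = 0.195 in limma). Between the lines in retinoic acid Rfx6 differed by -2.28. Its signal was above the olfactory receptor limit only in wild-type cells in retinoic acid. Of 6 markers of sensory hair cells and neurons 0 rose and 0 fell, and Pou4f3, the hair cell factor, had 7.28, 7.06, 7.10 and 6.76. Among markers of other tissues, of 10 for primitive endoderm 3 rose and 0 fell, and of 11 for mesoderm and mesenchyme 5 rose and 0 fell. Of 9 neural crest markers 2 rose and 1 fell. The part of cell composition in the values of the 9 genes was not tested.

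Genes with the pattern most like Neurog3, Neurod1 and Hes5 were found by the Euclidean distance between log2 values centred on each gene's mean over the 4 arrays, which says nothing of shared function; predicted genes and clone names were passed over. For Neurog3 the nearest was Cnp, a myelin enzyme (distance 0.0238), followed by Glud1, glutamate dehydrogenase (0.0306), and Plcb4, a phospholipase (0.0321). For Neurod1 they were the histone gene H4c17 (0.0313), the olfactory receptor gene Olfr1302 (0.0356) and F2, prothrombin (0.0607). The signals of Olfr1302 were log2 6.44, 6.60, 6.35 and 5.91. For Hes5 they were Ntn1, the guidance factor netrin (0.0393), Zfp282 (0.0574) and the metalloprotease gene Adam19 (0.0674).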

How the data were processed

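RNA from 4 P19 cultures was measured on 1 array each. The authors deposited RMA values on the log2 scale, computed in Affymetrix Expression Console per the labels, and Transcriptome Analysis Console appears in the submitters' processing notes. RMA normalizes between arrays, so a shift of all genes would not be seen. Versions and build were not given in the sources used here. Of 41345 probe sets 23521 had 1 gene symbol, 1814 several and 16010 were not in the annotation; of the probe sets that named a gene alone, the one of highest mean stood for it, and genes below log2 6 on all arrays were left out. Log2 differences and 2-fold counts carry no test. Averaged effects came from limma 3.58.1 in R 4.3.3 (lmFit, eBayes, retinoic acid and line additive, 1 residual degree of freedom, prior 5.49). Tests were two-sided, with Benjamini-Hochberg adjustment over 18310 genes. On simulated data the fit made 113 calls for retinoic acid and recovered 11% of 2-fold and 99% of 4-fold effects. For the line it made 104 calls and recovered 5% and 96%. Most 2-fold effects were thus missed in the simulation. The adjusted p depends on how many genes change, and here 1217 genes passed for retinoic acid and 8 for the line. The recovered shares therefore do not carry over directly to these data, where Id2 and Hey1 passed at 1.73-fold and 1.85-fold. P-values measure only the spread between these 4 arrays. Promoters and gene positions are from RefSeq (GRCm38.p6; 9 of 9 genes matched). The 9 genes and all lists were chosen with earlier results of these data known. Named were all 9 genes with all their probe sets. From each related list came up to 4 genes past limma's threshold with the largest effects, or else up to 2 at least 2-fold apart. From each marker list up to the first 4 genes as written could be named. Patterns were matched for the 3 genes of widest range. Alternatives were dropping the filter or setting it at log2 7, quantile normalization, the mean of probe sets, a 3-fold threshold, and a trended or robust prior.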

Additional observations from a re-analysis of the deposited data

Results flagged for a closer look

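Of the 8 genes past the filter, 5 had differences of opposite sign in the lines or the states, as did 54.9% of all genes compared. With 1 array per condition these differences were not tested, and the technical SD of such a difference was log2 0.321. Hes5 differed with retinoic acid by log2 0.61 in wild type and -0.08 in the Ctcfl line, and between the lines by 0.25 undifferentiated and -0.45 in retinoic acid, which gives -0.70 for either contrast; its second probe set had 1 sign in each contrast, at -0.23 and -0.35 with retinoic acid and -0.18 and -0.31 between the lines (-0.13). Neurod1 differed with retinoic acid by 0.13 and -0.48 (-0.61), and its probe set shared with Cerkl was negative in both lines, at -0.19 and -0.52 (-0.33). Olig3 differed with retinoic acid by 0.34 and -0.01 (-0.34), and its second value, near 0, was 0.02 with quantile normalization. Olig2 differed between the lines by 0.11 undifferentiated and -0.40 in retinoic acid (-0.51). Atoh1 differed between the lines by -0.31 undifferentiated and 0.00478 in retinoic acid (0.32), so that its second value was near 0.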

How the results depend on the processing

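The limma fit for retinoic acid is itself paired by line, with 2 pairs; the labels give no replicate numbers for another block. Leaving out an array was not run as a test, since 3 arrays leave no residual degree of freedom. Of the 9 genes, Neurod4 entered only without the filter, and Neurod1, Olig2 and Olig3 were left out at log2 7. Under every alternative run, 0 of the genes that it kept from the 9 were 2-fold apart in any of the 5 comparisons. For the line 0 of these genes passed in limma. For retinoic acid 1 of them, Neurog3, passed with quantile normalization (log2 -0.63, adjusted p = 0.0441) and with a trended prior (log2 -0.61, adjusted p = 0.0443) in limma; the cause was not tested. With the mean of probe sets Hes5 moved to log2 0.19 for retinoic acid in wild-type cells. Its effect averaged over the lines then was -0.01, a change of sign. Quantile normalization turned the sign of values near 0: the retinoic acid difference in the Ctcfl line became -0.11 for Neurog2 and 0.02 for Olig3, and the line difference of Neurog2 in retinoic acid became -0.09. Over all genes, a 3-fold threshold left 338, 285, 49, 48 and 96 genes in place of 952, 862, 333, 225 and 486 for retinoic acid in wild-type cells, retinoic acid in the Ctcfl line, the line undifferentiated, the line in retinoic acid and the difference of responses. The line effect passed in 23 genes with quantile normalization and 15 with a trended prior, in place of 8.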
